A study of Mus musculus with 72 samples.

Results

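Exon usage was compared between the suprachiasmatic nucleus (SCN), the master circadian pacemaker in the hypothalamus, and the liver of mice on the control diet. The comparison used counts of reads per exon bin, where a bin is a piece of an exon cut wherever the annotated transcripts of the gene differ. Genes were taken if they had at least 5 CPM on average in each tissue, CPM being the summed bin counts of the gene scaled to the total of all bins in the library. This held for 8037 of the 55969 genes in the files, and 34 of the 72 libraries entered the comparison, 18 from SCN and 16 from liver. Cplane1 lay just inside the limit at 5.00 CPM in liver, and Spata5 just outside it at 4.999 CPM in liver.

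All libraries came from C57BL/6J mice kept in a light-dark cycle and then in constant darkness, fed either the control diet (TD.220157) or an isocaloric diet without methionine and choline (MCD, TD.220158). Mice were sampled at 6 circadian times (CT), 4 h apart, with 3 libraries per tissue, diet and time. Replicates 1 and 2 are labelled male and replicate 3 female, while the protocol text names males only, so the labels were followed. Liver RNA came from the left lobe, and SCN tissue was cut by laser from stained brain sections. Liver control CT00 replicates 1 and 2 were left out because their bin files end early. Liver and brain were dissected from each mouse, but no label ties a liver library to the SCN library of the same number, and p-values measure the spread between these libraries.

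Most mammalian genes make several mRNAs by splicing in or skipping cassette exons, by starting at other first exons and by ending at other last exons. Neurons are known for including very short cassette exons, called microexons, which the splicing activators SRRM4 and SRRM3 promote, and for losing the repressor PTBP1. Hepatocytes carry ESRP2, an epithelial splicing regulator, and exon forms of their own such as that of ketohexokinase-C, the main enzyme of fructose phosphorylation in liver.

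The exons on which the comparison turns are shown first. Each is read from GENCODE M21 transcripts (build GRCm38, 5′ to 3′ in the sense of the gene) and is coding in at least 1 transcript. Capitals mark the exon and lower case the neighbouring 12 bases on each side in the mRNA. The first pair are the mutually exclusive exons of Khk, ketohexokinase, which have equal length and share 73 of 135 bases.
Khk bin 6 (chr5:30926688-30926822, plus strand): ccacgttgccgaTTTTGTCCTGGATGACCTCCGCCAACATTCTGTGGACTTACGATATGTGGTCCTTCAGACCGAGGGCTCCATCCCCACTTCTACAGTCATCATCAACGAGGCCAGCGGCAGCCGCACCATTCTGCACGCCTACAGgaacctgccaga
Khk bin 7 (chr5:30927022-30927156, plus strand): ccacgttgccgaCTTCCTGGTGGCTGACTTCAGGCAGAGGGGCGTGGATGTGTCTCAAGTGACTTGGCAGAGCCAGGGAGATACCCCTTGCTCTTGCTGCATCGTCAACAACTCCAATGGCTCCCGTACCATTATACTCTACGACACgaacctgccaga
The next are the exons of the clathrin light chains Clta and Cltb that brain is known to include.
Clta bin 11 (chr4:44030215-44030268, plus strand): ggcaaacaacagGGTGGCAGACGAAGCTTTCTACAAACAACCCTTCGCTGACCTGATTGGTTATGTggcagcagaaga
Clta bin 12 (chr4:44031400-44031435, plus strand): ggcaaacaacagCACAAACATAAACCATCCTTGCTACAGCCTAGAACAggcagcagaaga
Cltb bin 6 (chr13:54597026-54597079, minus strand): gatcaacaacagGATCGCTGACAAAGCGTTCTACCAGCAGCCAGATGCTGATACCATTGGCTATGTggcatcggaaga
Other textbook exons, of the insulin receptor Insr and of the amyloid precursor protein App, are known to be skipped in neurons.
Insr bin 18 (chr8:3181702-3181737, minus strand): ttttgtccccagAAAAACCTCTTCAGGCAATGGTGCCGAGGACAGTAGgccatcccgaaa
App bin 25 (chr16:85040251-85040307, minus strand): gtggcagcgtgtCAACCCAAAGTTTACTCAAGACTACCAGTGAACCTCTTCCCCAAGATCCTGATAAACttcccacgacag
The last are exons of 27 bases or fewer, of which Myo6 bin 42 was higher in liver and the others shown were higher in SCN.
Nckap1 bin 39 (chr2:80571213-80571230, minus strand): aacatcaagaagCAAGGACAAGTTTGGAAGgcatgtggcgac
Pls3 bin 12 (chrX:75799717-75799743, minus strand): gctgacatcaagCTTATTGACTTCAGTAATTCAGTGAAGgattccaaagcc
Kif21a bin 22 (chr15:90964975-90964995, minus strand): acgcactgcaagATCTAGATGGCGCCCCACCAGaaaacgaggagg
Vti1a bin 14 (chr19:55387189-55387209, plus strand): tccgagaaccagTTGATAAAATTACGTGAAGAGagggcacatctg
Dctn1 bin 14 (chr6:83187764-83187784, plus strand): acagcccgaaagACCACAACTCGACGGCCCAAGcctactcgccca
Atp6v0a1 bin 34 (chr11:101049459-101049476, plus strand): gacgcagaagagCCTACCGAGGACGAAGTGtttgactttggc
Ap1b1 bin 21 (chr11:5033242-5033262, plus strand): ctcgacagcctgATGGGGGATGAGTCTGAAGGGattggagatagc
Myo6 bin 42 (chr9:80293527-80293553, plus strand): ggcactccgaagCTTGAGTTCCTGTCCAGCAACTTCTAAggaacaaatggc

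The libraries differed between the tissues in depth, in cell types and in coverage along the gene. SCN libraries held 18315163 to 67530812 bin counts and liver libraries 44860271 to 81832488. Hepatocyte markers (10 of 10 genes found) summed to 3.03 to 34.4 CPM in SCN and 115670 to 157480 CPM in liver, and Serpina1c, Fgb and Ahsg lay under 0.1 CPM in SCN. SCN markers (10 genes) summed to 1946 to 3485 CPM in SCN and 18.6 to 319 CPM in liver, where 8 of them, among them Avp and Vip, lay under 0.1 CPM. In SCN, neuron markers (8 genes) summed to 2984 to 3925 CPM and oligodendrocyte markers (7 genes) to 1421 to 2376 CPM. The liver libraries held 7 with a low and 9 with a high share of reads in no bin, and no named bin had shares that separated these. A score set to -1 at the mean of the control livers and 1 at that of the MCD livers, over 380 to 480 genes that separated the diets at the other times, placed the liver library labelled control CT08 replicate 1 at 0.851. The remaining 15 control livers lay between -1.15 and -0.694, and MCD livers between 0.246 and 1.94, so this library goes against its label. It was kept, and without it 7193 genes in place of 7216 were called for exon usage, and 625 in place of 630 cassette exons. Exon use is that of each tissue's mixture of cells, in which fewer cells of a type and less RNA per cell cannot be told apart.

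Coverage fell off towards the 5′ end in SCN. Over 2835 genes, the median log2 ratio of counts in the 2 most 5′ internal exons to those in the 2 most 3′ was -1.79 to -0.79 (median -1.27) in the 18 SCN libraries and -0.44 to -0.27 (median -0.33) in the 16 liver libraries. The tissues did not overlap in this ratio, so tissue and coverage cannot be told apart in a count of bins along whole genes. The relative log2 change of a bin is its log2 ratio of SCN to liver minus that of its whole gene. Over internal exon bins its median rose from -0.93 in the 5′-most of 5 equal stretches of the gene, through -0.66, -0.43 and -0.18, to 0.09 in the 3′-most. Alternative first exons had a median of -0.80 and alternative last exons of 0.33, as the plot of coverage and bin classes shows.

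**Figure D1:**
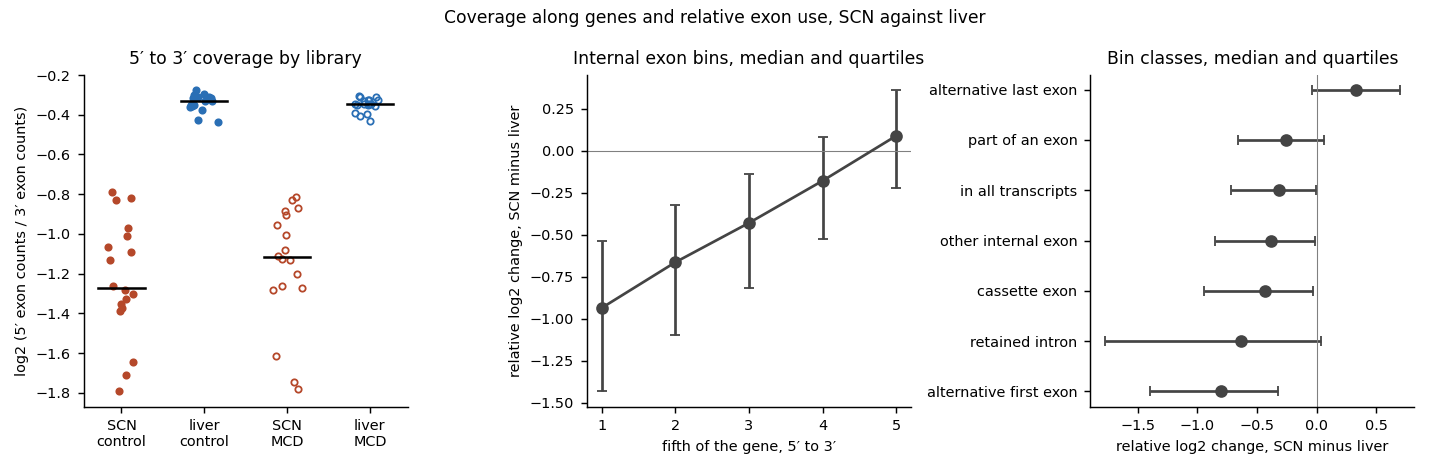
Left, log2 ratio of counts in 5′ to 3′ internal exons for each library (points; bars, medians), middle, relative log2 change of internal exon bins by position in the gene, and right, by bin class (points, medians; error bars, quartiles). SCN libraries lie at -1.79 to -0.79 and liver libraries of the control diet at -0.44 to -0.27, and the relative change rises from -0.93 at the 5′ end to 0.09 at the 3′ end.

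Nearly all genes differed in exon usage between SCN and liver. Of 7798 genes tested, 7216 (92.5%) were called by edgeR's exon usage test with Simes p-values at an adjusted p of 0.05, and 6115 (78.4%) had at least 1 bin called with a relative change of at least 1 log2. Of 142148 bins, 70522 (49.6%) were called and 12855 (9.04%) had shares of their gene that did not overlap between the tissues. Of the bins tested, 4723 (3.32%) were called and at least 1 log2 higher in SCN, and 26501 (18.6%) were called and at least 1 log2 lower. With coding bins only, without alternative first and last exons and retained introns, 3699 of 7132 genes were called and 2060 had such a bin. With the median of the same stretch of the gene subtracted, 4476 of 7472 genes had a called bin of at least 1 log2, and such bins numbered 4686 higher and 11159 lower in SCN. The part of coverage in these counts was not tested. The values that follow are therefore mainly those of exons set against their own neighbours and of bins that go from near 0 in 1 tissue to a clear share in the other.

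Cassette exons were set against the bins that flank them, since neighbours share the local coverage. The quantity is the count in the exon as a percentage of the summed counts of its flanking bins. It is not scaled by length, so it compares tissues for 1 exon and not exons with each other. Of 3878 cassette exons in 2172 genes, 1195 (30.8%) differed at an adjusted p of 0.05 (limma on the log2 ratio, with time and sex as covariates), and 630 (16.2%) did so by at least 1 log2. Of these, 199 (5.13%) were higher in SCN and 431 (11.1%) lower. The libraries of the tissues did not overlap for 178 exons (4.59%), 75 higher and 103 lower in SCN. The median over these 3878 cassette exons was -0.13 log2.

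Short cassette exons were more often higher than lower in SCN, and longer ones more often lower. Among the 79 cassette exons of 27 bases or fewer, 39 (49.4%) were at least 1 log2 higher in SCN and 4 (5.06%) lower, with a median of 0.54 log2. Among the 460 of 28 to 60 bases, 50 were higher and 71 lower. Among the 2468 of 61 to 150 bases, 89 (3.61%) were higher and 271 (11.0%) lower. An exon could pass the filter on low bins through its counts in 1 tissue alone. Short exons gather few counts, so some near 0 in 1 tissue are in the set only through the other. The part of this filter in the shares by length was not tested. As a description with no test, and with non-coding exons included, the length was a multiple of 3 for 83.4% of the 199 higher in SCN, 50.6% of the 431 lower and 42% of the 3248 others. The plot of cassette exons by length shows the cluster of short exons above 0.

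**Figure D2:**
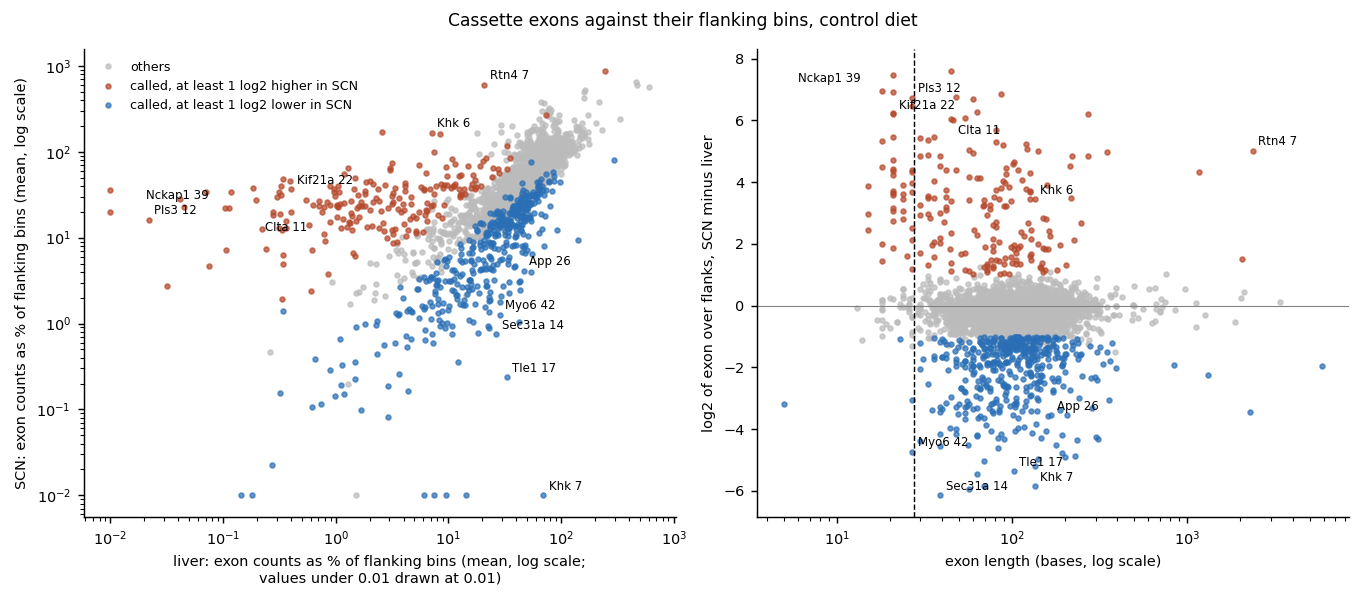
Left, counts in each of 3878 cassette exons as a percentage of their flanking bins in SCN against liver (means over libraries, log axes), and right, the log2 difference of SCN minus liver against exon length in bases (log axis; dashed line, 27 bases). Red points are the 199 exons called and at least 1 log2 higher in SCN and blue points the 431 lower; 39 of the 79 exons left of the line are red.

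Short exons were named by a rule chosen after the values were seen: coding, called, at least 10% of the flanks in 1 tissue and no overlap between the tissues, with 1 exon a gene. The 10 largest increases and decreases of any length were named by the same conditions, coding or not, and further cassette exons were added singly. Nckap1 encodes a subunit of the WAVE complex that drives actin branching, and its 18-base exon (bin 39) stood at 2.29% to 41.1% of its flanks in SCN (median 21.8%) and at 0% to 0.728% in liver (median 0%). The difference was 6.96 ± 0.35 log2 (SE; limma adjusted p = 9.23e-16). Kif21a is a kinesin, and its 21-base exon stood at 29.7% to 60.3% in SCN (median 34.6%) and at no more than 2.08% in liver, a difference of 6.21 ± 0.28 log2. Every SCN library lay above every liver library for both exons.

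Pls3, the actin bundler plastin 3, had its 27-base exon at 1.05% to 37.2% in SCN and at no more than 0.35% in liver (6.73 ± 0.34 log2). Vti1a encodes a SNARE of endosomes and the Golgi, and its 21-base exon stood at 25.4% to 47.9% in SCN (median 36.9%). It had no count in any of the 16 liver libraries, so its pooled share was at least 133-fold higher in SCN, set against 3 counts over the liver group. Ap1b1, a subunit of the AP-1 clathrin adaptor, had its 21-base exon at a median of 21.0% in SCN and no count in liver, at least 436-fold higher, although 1 or more SCN libraries had none. These exons were thus near or at 0 in liver and clearly higher in SCN. As the percentages are not scaled by length, they do not give the part of the SCN transcripts that holds each exon.

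Dctn1, the large subunit of dynactin, had its 21-base exon at 17.6% to 58.7% in SCN (median 45.4%) and at 0% to 7.55% in liver (median 2.48%), a difference of 3.72 ± 0.26 log2. Atp6v0a1, a subunit of the proton pump of vesicles, had its 18-base exon at 5.23% to 31.8% in SCN and at no more than 3.54% in liver (4.49 ± 0.33 log2). The 21-base exons of Tmem184b (4.73 ± 0.34 log2) and of Dlg1, a scaffold of cell junctions and synapses (4.43 ± 0.32 log2), also did not overlap between the tissues. A 24-base exon of Hnrnpa2b1, which encodes an RNA-binding protein, was used in both tissues, at 40.5% to 51.6% in SCN and 28.7% to 36.1% in liver, a smaller difference of 0.54 ± 0.03 log2.

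The 60-base exon of Dync1i2, an intermediate chain of dynein, stood at 16.1% to 41.7% in SCN and at no more than 1.34% in liver (6.68 ± 0.31 log2). Rpn2, a subunit of the enzyme that attaches sugars to proteins in the endoplasmic reticulum, had its 48-base exon at 19.7% to 36.3% in SCN and at no more than 0.797% in liver (6.76 ± 0.25 log2). Bins of Gas2 (6.29 log2), Clta (bin 11, 6.09 log2), Asph (bin 36, 6.05 log2) and Fez2 (5.68 log2) complete the 10 genes with the largest increase among exons without overlap. The 2361-base internal exon of Rtn4 (bin 7), which makes the difference between Nogo-A and the shorter forms of this inhibitor of axon growth, had 14.7% to 24.4% of the gene's counts in SCN (median 18.5%) and 0.499% to 3.09% in liver (median 0.949%).

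**Figure D3:**
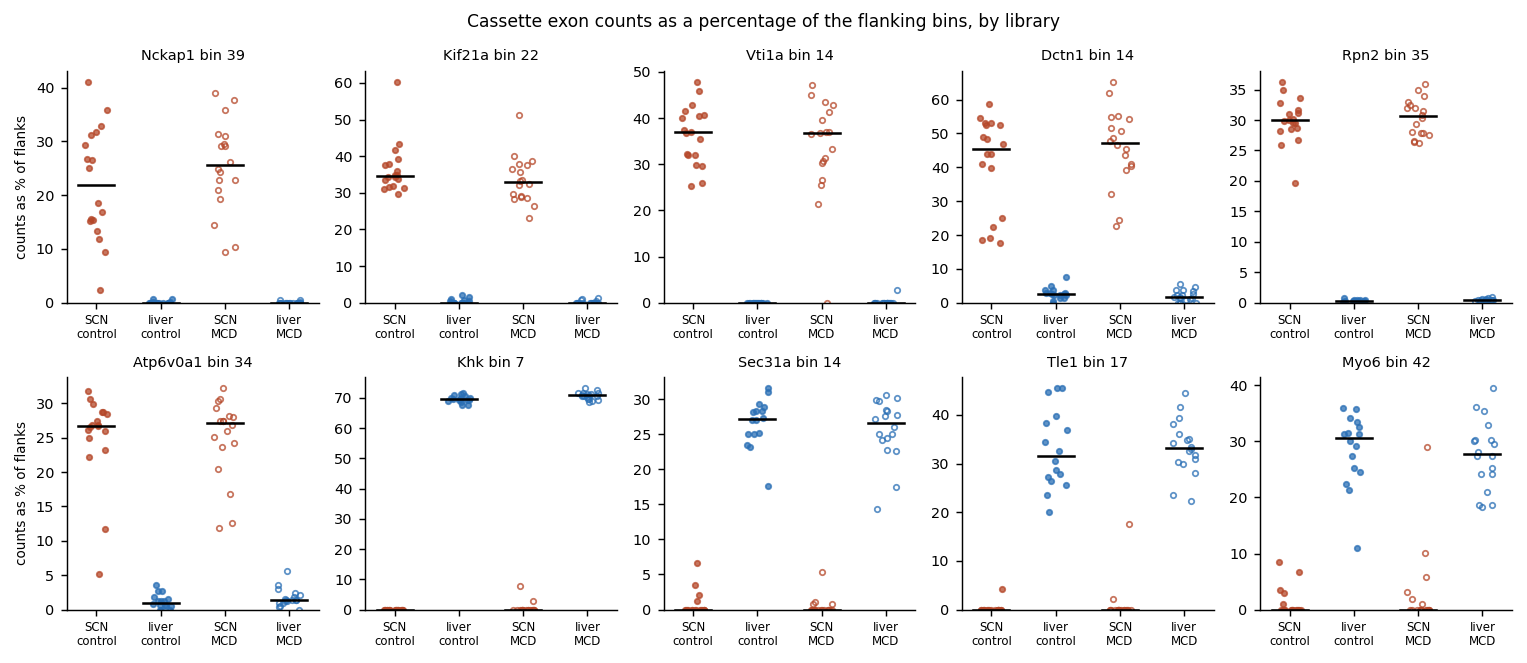
Counts in 10 cassette exons as a percentage of their flanking bins in each library, by tissue (red, SCN; blue, liver) and diet (filled, control; open, MCD); bars are medians. In the control diet the SCN and liver libraries of each exon do not overlap, with Vti1a at 25.4% to 47.9% in SCN and 0% in liver, and Khk bin 7 at 0% in SCN and 67.6% to 71.6% in liver.

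Among exons used in liver and skipped in SCN was that of Khk (-5.85 ± 0.43 log2). Bin 7, shown above, stood at 67.6% to 71.6% of its flanks in the 16 liver libraries (median 69.7%), and had no count in any of the 18 SCN libraries. Its pooled share was at least 255-fold lower in SCN. Bin 6, its partner of equal length, took 6.12% to 12.4% of the counts of the pair in liver (median 9.71%) and 100% in each SCN library. SCN libraries held only 13 to 77 counts of the pair each, 644 in all, so that 0 counts of bin 7 allow a share of up to 0.466% for counting error only. On the MCD diet, SCN libraries held 5 counts of bin 7 and 430 of bin 6, and bin 6 took 90.9% to 100% of the pair in 17 libraries, while 1 library had no count of either. Ketohexokinase-C and -A, which differ by this exon, are known as the liver form and the form of most other tissues.

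Sec31a, a coat protein of vesicles that leave the endoplasmic reticulum, had its 39-base exon at 17.6% to 31.5% in liver (median 27.2%) and at 0% to 6.63% in SCN (median 0%), a difference of -6.14 ± 0.39 log2. Tle1, a corepressor of transcription, had its 102-base exon at 20.0% to 45.5% in liver and at no more than 4.24% in SCN (-5.37 ± 0.30 log2). The 63-base exon of Dmxl2 (-5.44 log2) and the 69-base exon of Taok2, a protein kinase (-5.84 log2), were lower in SCN as well.

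Myo6, the motor protein myosin VI, was had 1 of the 4 exons of 27 bases or fewer that were lower in SCN. Its bin 42 stood at 10.9% to 36.1% in liver (median 30.7%) and at 0% to 8.51% in SCN (median 0%), a difference of -4.74 ± 0.40 log2. Timm9, Bclaf1, Kctd20 and Ypel5 (-5.19 to -4.36 log2) complete the 10 genes with the largest decrease among exons without overlap. Opa1, which fuses inner mitochondrial membranes, had its 54-base exon at 11.8% to 17.3% in liver and no count in SCN, at least 63.5-fold lower.

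Several textbook exons separated the tissues. App, the amyloid precursor protein, had 4.75% to 5.89% of its counts in bin 26, the 168-base exon of the Kunitz protease inhibitor domain, in liver (median 5.09%) and 0.323% to 0.583% in SCN (median 0.466%). Its relative change was -3.51 log2 (edgeR adjusted p = 1.72e-99), and -3.55 ± 0.08 log2 against its flanks. The neighbouring bin 25 of 57 bases had 1.07% to 2.28% in liver and 0.00833% to 0.165% in SCN (relative change -3.90 log2). Neither exon overlapped between the tissues. Of the other cassette exons of App named here, the 54-base bin 11 was higher in SCN by 1.17 ± 0.06 log2 against its flanks without overlap (limma adjusted p = 1.97e-16), and the 101-base bin 10 differed by 0.02 ± 0.04 log2 (limma adjusted p = 0.754).

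Clta and Cltb, the clathrin light chains, had far more of their brain exons in SCN. Clta bin 11 had 4.93% to 8.30% of the gene's counts in SCN (median 7.22%) and 0.0179% to 0.242% in liver (median 0.113%), a relative change of 5.86 log2. Clta bin 12 had 1.73% to 7.07% in SCN and 0.0303% to 0.335% in liver (5.26 log2). Cltb bin 6 had 4.81% to 7.31% in SCN and 0% to 0.217% in liver (5.68 log2). For each of the 3 exons the lowest SCN library lay above the highest liver library.

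Insr bin 18, the 36-base exon that sets the B form of the insulin receptor apart from the A form, had 0.999% to 1.63% of the counts in liver (median 1.35%) and 0% to 0.413% in SCN (median 0%), a relative change of -5.12 log2. Fn1, the matrix protein fibronectin, showed the opposite pattern in its 2 extra domains. Its 270-base bin 30 had 0% to 3.15% of counts in SCN (median 1.45%) and 0.0270% to 0.0780% in liver (4.54 log2), and its 273-base bin 40 a median of 0.690% in SCN and 0.0142% in liver (5.73 log2). The tissues overlapped for both Fn1 exons, since 1 or more SCN libraries had no count there at a gene level of 38.0 CPM.

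Other textbook genes differed less or elsewhere. Tpm1, the actin-binding protein tropomyosin, had 1.28% to 3.02% of counts in bin 16, a last exon, in liver and 0% to 0.274% in SCN (-4.10 log2), while its 126-base cassette exon (bin 35) was 3.72 ± 0.33 log2 higher in SCN. Slc25a3, the mitochondrial phosphate carrier, had a retained intron (bin 22) at 2.01% to 3.69% in liver and 0.0445% to 0.530% in SCN (-3.44 log2). The leading bins of Ptbp1 (-1.61 log2), Pkm (-1.54 log2) and Fgfr1 (-1.24 log2) overlapped between the tissues, and that of Ghr (bin 21) took at most 0.223% of the counts in liver. Fgfr1 and Ghr lost their call under 3 and 4 alternatives. Src was not tested, since its 3.17 CPM in liver lay under the limit.

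**Figure D4:**
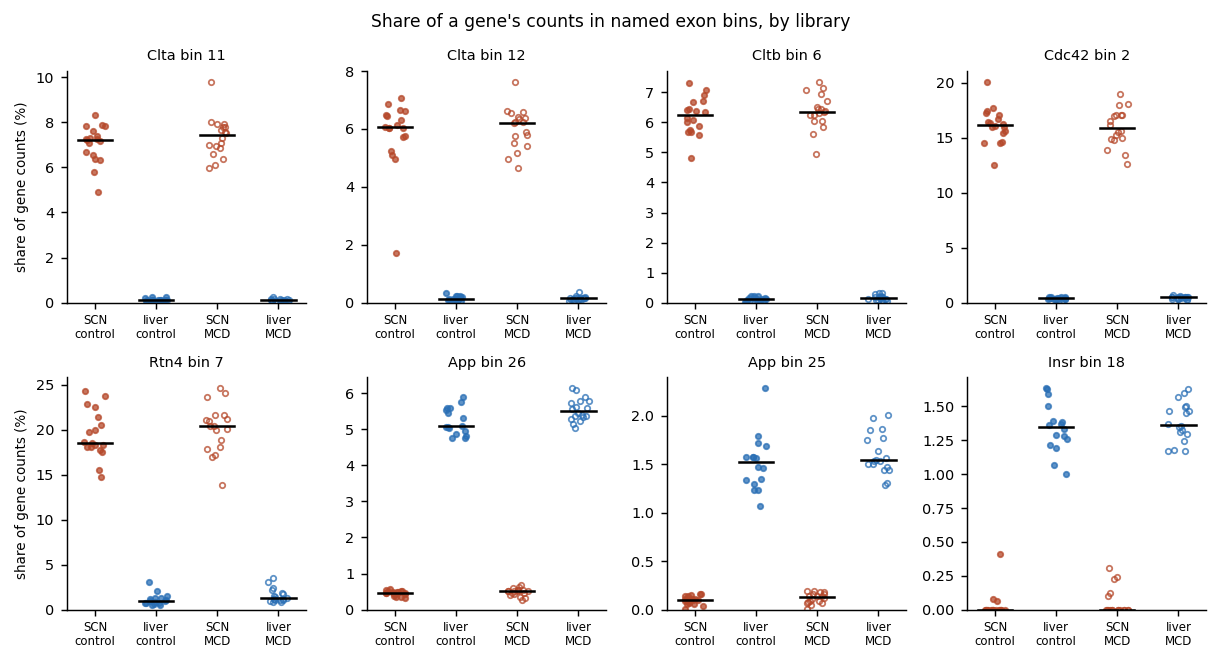
Share of a gene's bin counts (%) that fell in 8 named exon bins, in each library of SCN (red) and liver (blue) on the control (filled) and MCD (open) diet; bars are medians. On the control diet Clta bin 11 lies at 4.93% to 8.30% in SCN and 0.0179% to 0.242% in liver, App bin 26 at 0.323% to 0.583% and 4.75% to 5.89%.

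Among bins that hold a large share of their gene, most of the large differences were in last exons. A bin with at least 10% of its gene's counts in 1 tissue, no overlap between the tissues and a relative change of at least 1 log2 was found in 1122 of 7291 genes (15.4%), and of at least 2 log2 in 206. In genes matched to the annotation, the 2 log2 limit was passed by alternative last exons in 112 genes in the direction of SCN and in 28 in that of liver. Alternative first exons passed it in 1 gene in the direction of SCN and 16 in that of liver, and retained introns in 5 and 16. The condition of 10% favours long bins. How many bins of each class met it was not counted, so these numbers give no rate per class. Coverage in SCN was higher towards the 3′ end. The part of coverage in these counts was not tested.

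Epb41l4b, a membrane-linked band 4.1 protein, led the increases. Its bin 1, the last exon of 3706 bases, took 46.4% to 81.2% of the gene's counts in SCN (median 64.9%) and had no count in liver, where the gene itself was at 98.8 CPM. The pooled share was at least 18112-fold higher in SCN. Map4, a microtubule-binding protein, had 20.8% to 31.4% of its counts in SCN in bin 8, a last exon of 2450 bases, and no more than 0.108% in liver (9.91 log2).

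Itsn1, an endocytic scaffold with a long form in neurons, had 10.8% to 20.0% in bin 100, its most 3′ exon, in SCN and 0.0350% to 0.337% in liver (6.25 log2). Kalrn, a GTPase exchange factor of synapses, had 25.9% to 46.9% in its last exon in SCN and 0.345% to 1.4% in liver (6.17 log2). Cdc42, a GTPase of cell polarity, has a brain form with its own last exon, and this bin 2 took 12.6% to 20.1% of counts in SCN (median 16.2%) and 0.188% to 0.543% in liver (5.32 log2). In all 3 genes the groups were far apart.

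Asph bin 31 (6.67 log2), Tln1 bin 72 (6.10 log2) and Vps13c bin 90 (6.06 log2) were the other last exons, with medians of 18.1%, 20.4% and 44.0% of their gene's counts in SCN. The change of Vps13c bin 90 was 4.29 log2 with bins of at least 50 counts alone and 7.41 log2 by limma. Cp bin 52 was called as well (7.72 log2), but an exon of Hps3 on the other strand overlaps it in GENCODE M21, and reads from the 2 genes cannot be told apart. No other bin named here that could be matched overlaps an exon of another gene.

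In the direction of liver, Tmem29 bin 8, a last exon of 3380 bases, took 14.7% to 34.8% of the counts in liver (median 25.4%) and at most 0.232% in SCN (-8.43 log2). Epb41l5, another band 4.1 protein, ended at bin 16 in liver with 14.8% to 17.2% of its counts, against 0% to 0.691% in SCN (-6.91 log2). Dnmbp, an exchange factor of Cdc42, had an alternative first exon (bin 19) at 9.59% to 15.0% in liver and at most 0.524% in SCN (-7.70 log2).

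Prkd3, a protein kinase, had a last exon (bin 14) at 8.10% to 20.0% in liver and at most 1.54% in SCN (-6.64 log2), although on the MCD diet the tissues overlapped. Tacc2 bin 6 (-9.70 log2), Peg3 bin 14 (-7.48 log2) and Gprasp1 bin 4 (-8.96 log2) took medians of 15.0%, 13.2% and 10.1% in liver. Set against shares near 0, such sizes are loose: that of Tacc2 was -9.27 to -11.22 log2 as a replicate number was left out, and -10.95 log2 with the 7 livers of a low share in no bin. Tuba1c bin 2 (-9.89 log2) is uncertain, since tubulin genes are near-identical copies, and sharing of reads between them was not tested. The 8 genes with the largest decrease thus had bins at or near 0 in SCN.

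Gene groups were described by their leading bin, the called bin with the largest relative change and at least 20 counts per library in 1 tissue. Its median size was 1.54 log2 over the 7385 genes that have one. It was 3.6 log2 over the genes of actin, spectrin and microtubules, where 28 of 28 genes tested were called, 3.70 log2 over those of clathrin coats and vesicle traffic (33 of 33 called) and 3.91 log2 over kinases, receptors and adapters (38 of 38 called). With 92.5% of all genes tested called, these counts lie near the background and say nothing particular about the lists. The lists were drawn up from genes known for tissue-dependent exons, so their size is a description.

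Among cytoskeletal genes, Klc1, a kinesin light chain, had 4.86% to 7.90% of its counts in bin 31 in liver and at most 0.0554% in SCN (-8.61 log2). Leading bins of the spectrin Sptbn1 (-8.14 log2) and the linker Macf1 (-7.78 log2) took less than 1.21% of the counts in either tissue. Among traffic genes, alternative first exons of Rufy3 (7.83 log2) and Spag9 (7.77 log2) were higher in SCN. Among signalling genes, Gnas bin 7 (10.84 log2) and Sorbs2 bin 76 (8.28 log2) were higher in SCN and Slk bin 19 (-7.51 log2) lower. Gnas, the stimulatory G protein, is an imprinted gene with several first exons.

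Splicing factors were called in 33 of 33 genes, against 92.5% of all genes, and their leading bins were lower in SCN in 29 and higher in 4 (median 3.16 log2). Called bins of all genes also lay mostly lower, 52846 against 17676 higher. Examples are a retained intron of Hnrnph1 (bin 11), at 0.662% to 1.37% of counts in liver and 0% to 0.391% in SCN (-4.82 log2), and bins of Hnrnpr (-4.57 log2), Rbm39 (-4.56 log2) and Hnrnpdl (-4.34 log2). Over all retained-intron bins the median was -0.64 log2. Of transcription and chromatin genes, 27 of 28 were called (median 2.17 log2; Tcf3 was not called), near the 92.5% of all genes. Smarcc2 bin 36 had 5.74% to 7.74% in liver and 0.151% to 1.06% in SCN (-3.86 log2), while a first exon of Tcf12 (6.92 log2) and Smarca2 bin 78 (5.85 log2) were higher in SCN and Nfe2l1 bin 22 (-4.26 log2) lower.

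Of metabolic genes, 38 of 39 were called (median 1.83 log2; Oat was not called), again near the 92.5% of all genes. A first exon of Pcx, pyruvate carboxylase, had 0.411% to 0.768% of counts in liver and none in SCN. Atp2b1, a calcium pump of the plasma membrane, had bin 41 at 0.510% to 3.97% in SCN and at most 0.262% in liver (4.53 log2).

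Of clock genes, 15 of 20 were called, against 92.5% of all genes, and 17 of 20 had a called bin of at least 1 log2, against 78.4% of all genes. The median of their leading bins was 2.38 log2, and Arntl, Ciart, Npas2, Nr1d1 and Per2 were not called. The difference of these shares from the background was not tested. Hlf, a clock-output factor, had an alternative first exon (bin 12) at 1.06% to 4.08% in liver and at most 0.0703% in SCN (-7.01 log2). Tef bin 15 had 4.10% to 11.0% in liver and 0.0622% to 1.36% in SCN (-3.07 log2). The leading bin of Nr1d2, a repressor of the clock loop, was lower in SCN (-3.25 log2).

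The levels of 30 of 31 splicing regulators differed between the tissues (edgeR's quasi-likelihood test on summed bins; background 89.7% of 18663 genes), and Esrp1 was too low to be tested. Srrm4, the activator of microexons, stood at 26 to 77.3 CPM in SCN (median 38.1) and 0.627 to 6.90 CPM in liver (median 2.11), a difference of 2.95 ± 0.24 log2. Its relative Srrm3 stood at 26.3 to 50.5 CPM in SCN and at no more than 0.0315 CPM in liver. The repressor Ptbp1 stood at 52.7 to 84.5 CPM in SCN and 115 to 194 CPM in liver (-2.17 ± 0.06 log2), and its neuronal relative Ptbp2 at 101 to 169 CPM and 6.39 to 16.0 CPM (2.63 ± 0.11 log2). None of these genes overlapped between the tissues.

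The further neuronal regulators named here lay at no more than 1.82 CPM in any liver library. Celf4 stood at 683 to 951 CPM in SCN and 0.213 to 1.09 CPM in liver, Celf6 at 254 to 335 CPM and at most 0.0945 CPM, and Elavl3 at 113 to 207 CPM and at most 0.243 CPM. Nova1, Nova2, Rbfox1, Rbfox3, Elavl2, Elavl4, Celf3, Celf5 and Khdrbs2 showed the same order. Esrp2 went the other way, with 94.7 to 149 CPM in liver and at most 0.241 CPM in SCN, as did A1cf, the cofactor of Apob mRNA editing, with 125 to 187 CPM in liver and at most 3.26 CPM in SCN. TMM centred the differences of all genes at 0.04 log2, against 1.18 log2 with library totals alone. With totals, as in the CPM above, Ptbp1 differed by -1.02 log2 and Ptbp2 by 3.78 log2. Celf1 (-1.08 log2) turned to 0.07 log2 with totals, while the other 29 kept their direction.

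**Figure D5:**
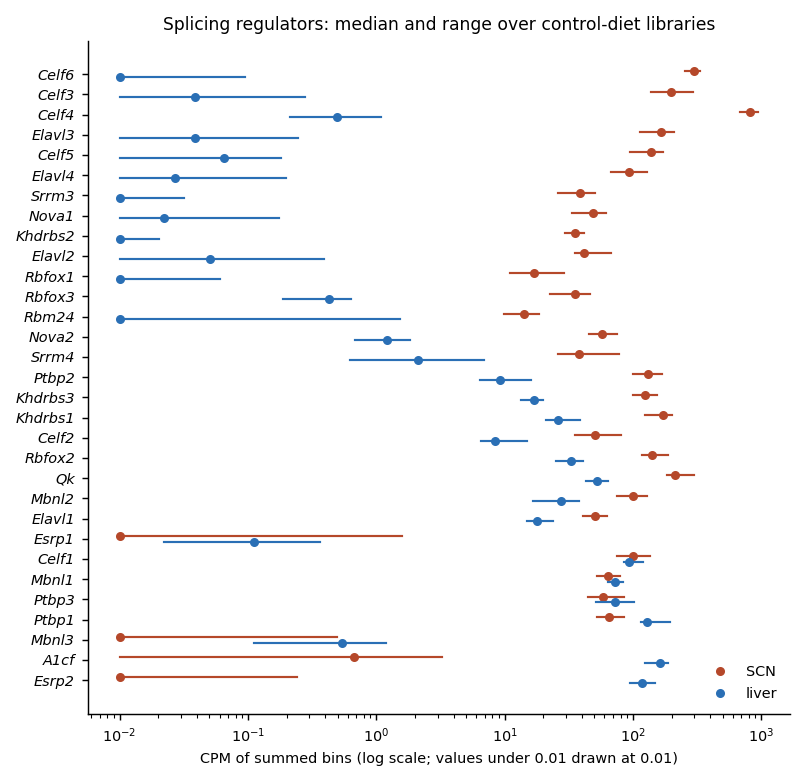
Levels of 31 splicing regulators in CPM of summed bins (log axis), as median (point) and range (line) over the 18 SCN (red) and 16 liver (blue) libraries of the control diet. Srrm4 lies at 26 to 77.3 CPM in SCN and 0.627 to 6.90 CPM in liver, and Esrp2 at no more than 0.241 and 94.7 to 149 CPM.

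The MCD libraries, 18 from SCN and 18 from liver, gave the same comparison in samples that the control diet did not use. There 7366 of 7801 genes (94.4%) were called, and 7082 genes were called on both diets. Of the 30609 bins at least 1 log2 apart on the control diet and tested on both, 28408 were called in the same direction on the MCD diet, and 5 were called in the opposite one. Coverage differed between the tissues on the MCD diet too. The log2 ratio of 5′ to 3′ counts was -1.78 to -0.81 in SCN and -0.43 to -0.30 in liver. The part of coverage in this agreement of bins was not tested. For cassette exons, 558 of the 630 were called in the same direction. The Nckap1 exon differed by 7.71 log2 on the MCD diet, the Sec31a exon by -6.20 log2 and App bin 26 by -3.51 log2 against their flanks.

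A direct test of the difference between the diets called few genes. In a model over all 70 libraries, the tissue difference in exon usage depended on diet in 47 of 7805 genes (0.602%) by the Simes test of edgeR, and in 379 genes at an unadjusted p of 0.05. Of the bins named above, Tmem29 bin 8 changed with diet by 1.88 log2 (edgeR adjusted p = 0.0403), with a median share in liver of 25.4% on the control diet and 21.8% on the MCD diet. In SCN its share was near 0 on both, with a mean of 0.0571% (SD 0.0803, n = 18; 21 counts in all) on the control and 0.255% (SD 0.475, n = 18) on the MCD diet.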

How the data were processed

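The values are raw read counts per exon bin, deposited by the authors as 1 file per library in the layout of the DEXSeq counting script. Per the labels' protocols, libraries were stranded and poly-A selected. The submitters' processing notes name GRCm39, Trimmomatic, HISAT2, StringTie and DESeq2, without versions, and whether counting used strand is not given in the sources used here. Reads in no bin made up 3.61% to 14.2% of a control library used here and stayed out of all totals. The control livers fall into 7 libraries under and 9 over 7% of reads in no bin, which the alternatives treat separately.

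Exon usage was tested with edgeR 4.0.16 in R 4.3.3 (TMM, robust glmQLFit, diffSpliceDGE, Simes p-values per gene, Benjamini-Hochberg at 0.05) with tissue, circadian time and sex as terms. Bins were kept by filterByExpr with a minimum count of 10. This left 7798 genes, and 239 had too few bins. Bin classes, lengths and sequences came from GENCODE M21 (GRCm38), matched by gene ID and equal number of bins for 7472 genes, so no coordinates of the files' build are given. Over 6898 of these with at least 8 bins, bin length and count correlated at a median rho of 0.370 in order and -0.0933 with the order reversed.

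Cassette exons were tested with limma 3.58.1 on log2 of (count + 0.5) over (flanking counts + 0.5), flanks having a mean count of at least 20 in each tissue. This test, that of the difference between diets and the score of liver libraries were chosen after seeing the data. Intervals and limits cover counting error only. Scripts were tested on simulated data.

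Genes were named by rule: the 8 largest increases and 8 largest decreases among called bins with at least 10% of a gene and no overlap, up to 4 leading genes of each list, and textbook genes, some of which are not reported here. Cassette exons, Cdc42, Rtn4, Clta bin 12, App bin 26 and Fn1 bin 30 were added after their values were seen. The members and lists were chosen with earlier results of these data known.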

Additional observations from a re-analysis of the deposited data

Results flagged for a closer look

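The difference between tissues in Tmem29 bin 8 changed with diet by 1.88 log2 (edgeR bin test of the interaction, adjusted p = 0.0403), which singled it out. Its share in liver was 14.7% to 34.8% on the control diet (median 25.4%) and 16.5% to 29.6% on the MCD diet (median 21.8%). In SCN it was at most 0.232% on the control diet and 1.95% on the MCD diet.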

How the results depend on the processing

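Against 7216 genes called in all, 3940 of 4072 tested were called with a filter of 20 CPM and 3699 of 7132 with coding bins alone, a setting chosen after seeing the data. Against 6115 genes with a called bin of at least 1 log2, there were 3216 with bins of a mean count of at least 50, 3373 at 20 CPM and 2060 with coding bins alone. These settings tested fewer bins and, against 7798 genes, 7305 with the 50-count limit, 4072 at 20 CPM and 7132 with coding bins. The share of genes called also moved, and the reason was not tested. Without 1 replicate number at a time, called genes numbered 6518 to 6841, genes with such a bin 5967 to 6185, MCD calls 6806 to 7111 (of 7366) and cassette exons of at least 1 log2 515 to 547 (of 630). The other settings tried, among them DESeq2 size factors, limma, either kind of liver library and control CT08 replicate 1 left out, kept these counts within 1.5 times. Of 934 recomputed values of 60 named bins, 926 kept direction and call, while 58, in 36 bins, moved in size by over 1.5 times, 24 of these by limma. Fgfr1 bin 12 and Ghr bin 21 lost their call in 7. Insr bin 17, a neighbour not called at -0.24 log2, ranged from -1.20 to 0.31 log2 as a replicate number was left out, reversed without replicate 1 (edgeR adjusted p = 0.820). Celf1 went to 0.0693 log2 with library totals (edgeR adjusted p = 0.295). The cause was not tested in either case.

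With replicate number as a block, 7144 genes were called, 6367 had a called bin of at least 1 log2, 7309 were called on the MCD diet and 614 cassette exons differed by at least 1 log2. Same-numbered libraries correlated at 0.0158 to 0.365 on the control diet (median 0.216, against -0.15 between other numbers), and 12 of 15 correlated best with their own number. Values were deviations from the mean of each group, so a positive correlation with 1 number brings negative ones with others. The other numbers are therefore no independent baseline. Number and labelled sex coincide for replicate 3: other numbers of the same sex had a median of 0.0962 and of the other sex -0.207. On the MCD diet 16 of 18 pairs lay above 0.1. The condition for pairing was a correlation above 0.1 in every pair, which 13 of 15 control pairs met, so the block was kept as an alternative. The planned setting that keeps joined gene IDs was not run, because the files hold none. Low counts limit single exons: the Khk pair had 13 to 77 counts per SCN library, at a median of 34 against 4944 in liver.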
